A study of Mus musculus with 2 samples.

Results

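The genes described here encode parts of the contractile and filament machinery of myofibroblasts, or surface proteins of fibroblasts, and were read in 2 mouse epithelial cell lines, Mle29c and Mlesico. They are Acta2, Tagln, Cnn1, Myl9, Vim, Des, Tpm1, Tpm2, Thy1 and Fap. They were chosen by name, with earlier results of these data known. Every probe set (a group of short probes that reads 1 transcript region) annotated to a single one of these symbols was taken, which gave 21 of the 45101 probe sets and 10 of the 18193 genes on the array. The Mle29c cells and the Mlesico cells were both grown in DMEM with serum, per the labels, and each line was measured on 1 array. The study is about miR-29c in pulmonary fibrosis. The labels leave out which construct each line carries, in which direction miR-29c differs between the lines and whether a line is 1 clone.

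A myofibroblast is a fibroblast that has built a contractile apparatus. Smooth muscle actin filaments, steadied by tropomyosin and bound by calponin and transgelin, are pulled by myosin whose regulatory light chain is phosphorylated. Serum response factor (Srf), which binds DNA letters called the CArG box, drives many of these genes together with coactivators of the myocardin family. Vimentin and desmin form intermediate filaments, and Thy1 and Fap are surface proteins by which fibroblasts are often recognised. Tropomyosins also belong to the stress fibres of epithelial cells, and vimentin is common in cultured epithelial lines.

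Promoter sequences of 7 of the 10 genes were found in a RefSeq table for the GRCm38.p6 assembly, each with 250 bases before and 50 after a start site. The windows of 4 genes are shown: Acta2 and Myl9, which hold a CArG box or near matches to it, and both tropomyosin genes, which lay far apart in their ratios. Capitals mark a CArG box, a CArG box with 1 C or G among its 6 middle letters, or CATTCC on either strand (GGAATG on the strand shown), the core of the muscle CAT element. The Acta2 window is chr19:34255324-34255623 (minus strand), that of Myl9 chr2:156775214-156775513 (plus), that of Tpm1 chr9:67049164-67049463 (minus) and that of Tpm2 chr4:43523505-43523804 (minus). Each is written 5′ to 3′ along its gene.
Acta2: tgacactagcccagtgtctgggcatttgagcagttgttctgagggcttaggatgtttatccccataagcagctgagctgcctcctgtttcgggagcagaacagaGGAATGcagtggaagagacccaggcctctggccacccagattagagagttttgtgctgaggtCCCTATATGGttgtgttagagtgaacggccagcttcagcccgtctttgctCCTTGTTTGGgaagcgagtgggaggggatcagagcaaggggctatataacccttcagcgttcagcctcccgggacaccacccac
Myl9: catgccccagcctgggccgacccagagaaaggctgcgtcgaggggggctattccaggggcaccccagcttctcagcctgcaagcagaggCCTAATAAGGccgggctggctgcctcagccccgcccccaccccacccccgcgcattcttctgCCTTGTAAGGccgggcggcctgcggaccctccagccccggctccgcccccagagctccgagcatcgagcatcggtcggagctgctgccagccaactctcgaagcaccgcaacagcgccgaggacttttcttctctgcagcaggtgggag
Tpm1: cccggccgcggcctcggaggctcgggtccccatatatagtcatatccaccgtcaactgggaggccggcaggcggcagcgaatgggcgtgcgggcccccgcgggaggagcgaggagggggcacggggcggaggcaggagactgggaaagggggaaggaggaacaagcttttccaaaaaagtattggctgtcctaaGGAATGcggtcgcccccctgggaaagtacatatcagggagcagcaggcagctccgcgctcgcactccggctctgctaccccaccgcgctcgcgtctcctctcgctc
Tpm2: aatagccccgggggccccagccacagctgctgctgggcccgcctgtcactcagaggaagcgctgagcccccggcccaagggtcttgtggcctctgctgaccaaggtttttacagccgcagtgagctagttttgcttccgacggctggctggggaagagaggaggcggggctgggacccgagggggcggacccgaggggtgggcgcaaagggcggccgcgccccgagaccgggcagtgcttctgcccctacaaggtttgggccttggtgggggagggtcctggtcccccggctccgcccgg

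A full CArG box, CCTAATAAGG, began at -161 from the start site of Myl9, and a near match, CCTTGTAAGG, at -99. The Acta2 window held the near matches CCCTATATGG at -84 and CCTTGTTTGG at -34, and GGAATG at -146. Tpm1 had GGAATG at -56 and no CArG box. None of these letters was found in the windows of Tpm2, Cnn1, Vim and Des. Of all 32851 promoter windows of this length, 1.63% held a CArG box, 8.50% a near match and 14.7% CATTCC on either strand. A match describes letters, not a bound site.

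All differences are log2 ratios of Mle29c over Mlesico. With 1 array per line there is no replicate check, no SD between samples and no p-value, so genes were counted by size at 2-fold. The deposited values are centred on the midpoint of both arrays, so a probe set has equal values of opposite sign in the 2 lines and its absolute level has been removed. A level class was estimated from the rounding of the numbers: high for a mean log2 level of 8 or more, middle for 4 to 8 and low below 4. A gene was called measured when it had a high or middle probe set, and its value was the median over those. A log2 level of 4 is a signal of only 16, and 85.0% of all genes on the array were measured. Signal was not tested against background, so a measured gene of the middle class may not be expressed. Different probe sets of a gene had a pooled SD of 0.77 in log2 ratio, over the 7268 genes with 2 or more measured probe sets. That is a spread inside the arrays and not one between samples. In bulk RNA, fewer cells that express a gene and less RNA per cell cannot be told apart.

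Tpm2 was far lower in Mle29c by every probe set, and Fap was far lower by 1 dim probe set. Myl9 and Tagln were moderately higher by 1 dim probe set each. Acta2, Vim, Tpm1 and Thy1 lay close to 0, Acta2 and Thy1 from 1 middle-class probe set each. Tpm2, which encodes beta-tropomyosin, had a log2 ratio of -5.80, or 55.8-fold lower in Mle29c. Of the 9 measured members, 2 were at least 2-fold higher (Tagln and Myl9) and 2 at least 2-fold lower (Tpm2 and Fap). The level class rests on the mean of both arrays. The dimmer array lay below a log2 level of 4 with a probability of 98.4% for Tagln and 96.6% for Fap. Tagln and Fap therefore passed mainly through their brighter array, and their place in these counts is not independent of their ratios. Over all 15455 measured genes, 10.7% were at least 2-fold higher and 9.16% at least 2-fold lower. The median of the 9 members was 0.12, beside 0.01 over all measured genes. Whether Tagln and Fap count as measured depends on how the level class was estimated: under 2 earlier class rules both were low, and 7 members were measured, with Myl9 alone higher and Tpm2 alone lower. Cnn1 had only a low probe set under all 3 rules. With every probe set kept, Cnn1 joined the genes that were at least 2-fold higher, and the shares over all 18193 genes were 12.4% higher and 10.9% lower. Des lay just inside the 2-fold threshold at -0.99, and Tagln was the nearest measured member outside it at 1.58.

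**Figure D1:**
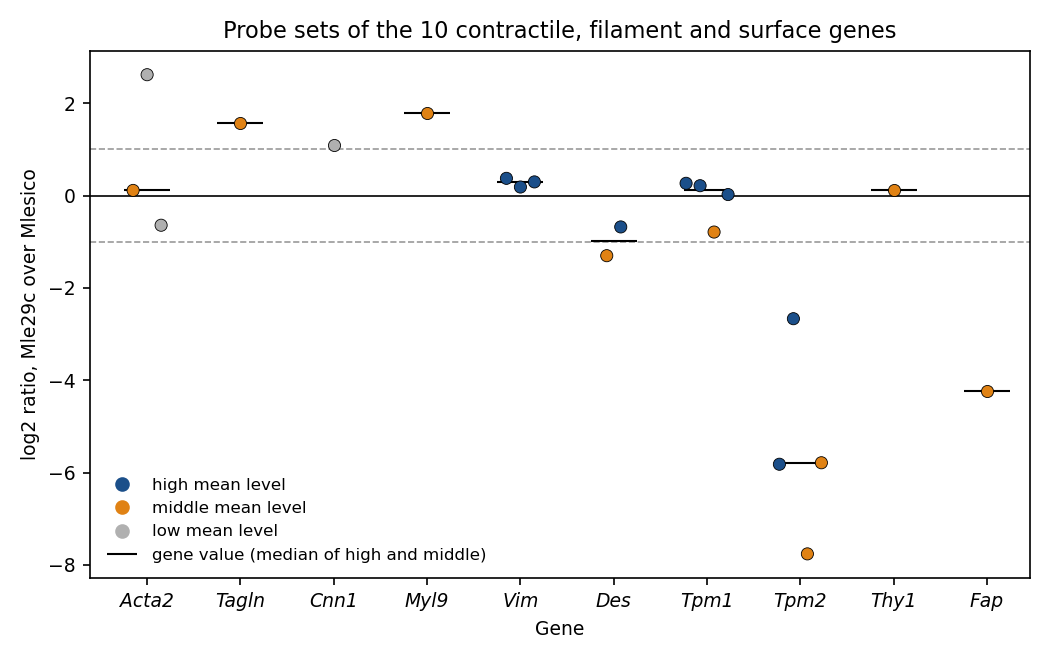
Log2 ratio of Mle29c over Mlesico (vertical axis) for each of the 21 probe sets of the 10 genes (points, coloured by estimated level class), with the gene value as a black bar and dashed lines at 2-fold. The 4 Tpm2 probe sets lie at -2.67 or lower, those of Vim lie between 0.19 and 0.37, and the low Acta2 probe sets lie on opposite sides of 0.

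The contractile members are Acta2 (alpha smooth muscle actin, the usual mark of a myofibroblast), Tagln (transgelin, an actin-binding protein), Cnn1 (calponin 1, which restrains actomyosin) and Myl9 (a regulatory light chain of smooth muscle and nonmuscle myosin). Acta2 (chr19:34240336-34255585, GRCm38.p6) had centred log2 values of 0.06 in Mle29c and -0.06 in Mlesico in its only probe set above the low class, 1416454_s_at, a ratio of 0.11. That probe set was in the middle class with a probability of 99.4%, and its name marks it as one that can match related transcripts. The other Acta2 probe sets had ratios of 2.62 and -0.64, and were low with a probability of 97.7% and 98.5%. Acta2 thus differed by less than the spread between probe sets of a gene.

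Myl9 (chr2:156775408-156781657) had centred log2 values of 0.90 in Mle29c and -0.90 in Mlesico from 1 probe set, a ratio of 1.79 or 3.46-fold higher. Tagln (chr9:45929628-45936058) stood at 0.79 in Mle29c and -0.79 in Mlesico, also from 1 probe set, a ratio of 1.58 or 2.98-fold higher. Cnn1 (chr9:22099221-22109221) stood at 0.55 in Mle29c and -0.55 in Mlesico, a ratio of 1.10. All 3 genes had larger values in Mle29c, each in a single dim probe set. The estimated probability that this probe set was in fact low was 20.1% for Myl9, 46.2% for Tagln and 98.4% for Cnn1. Their dimmer array, Mlesico, lay below a log2 level of 4 with a probability of 44.5% for Myl9, 98.4% for Tagln and 98.5% for Cnn1. Across the array, 49.4% of low probe sets were past 2-fold, 31.3% of middle ones and 11.6% of high ones. On simulated arrays, 22.3% of the middle calls past 2-fold had a true middle level. The level class of Myl9, Tagln and Fap, and its estimated probability, is therefore uncertain. The members' other middle calls past 2-fold were 1426731_at of Des, and 1425028_a_at and 1449577_x_at of Tpm2. In that simulation 1594 of 19993 middle calls were past 2-fold, a smaller share than in the data, so the 22.3% may not carry over.

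Tpm1 and Tpm2 encode alpha- and beta-tropomyosin, the coiled-coil proteins that lie along actin filaments, and each had 4 measured probe sets. Tpm2 (chr4:43513726-43523583) had centred log2 values of -2.91, -1.33, -3.88 and -2.89 in Mle29c, against 2.91, 1.33, 3.88 and 2.89 in Mlesico. The ratios of these probe sets were -5.82 (1419738_a_at), -2.67 (1419739_at), -7.76 (1425028_a_at) and -5.79 (1449577_x_at). All 4 were lower in Mle29c by over 4-fold, and the gene ranked 22 from the lowest of the 15455 measured genes. The first, 1419738_a_at, was in the high class with a probability of 99.4%, which would put its log2 level at 5.09 or more in Mle29c and at 10.9 or more in Mlesico. For 1425028_a_at the Mle29c level lay below 4 with a probability of 99.4%, so the size of its ratio is less firm than its direction. The SD over the 4 Tpm2 probe sets was 2.11, against the pooled 0.77. The probe sets other than 1425028_a_at were designed from a single source transcript, and all but 1419739_at have names that mark them as shared between transcripts. Without the shared ones, Tpm2 stood at -2.67, from 1419739_at alone, which was high with a probability of only 60.0%. The middle class of 1449577_x_at had a probability of 55.1%, and 1425028_a_at was low under the first of the earlier class rules.

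Tpm1 (chr9:67022590-67049672) stood at 0.12. Its probe sets had centred log2 values of 0.13, 0.11, -0.39 and 0.01 in Mle29c, against -0.13, -0.11, 0.39 and -0.01 in Mlesico, and ratios of 0.27, 0.21, -0.79 and 0.02. The probe sets of Tpm1 and Tpm2 did not overlap in ratio. The other tropomyosin genes lay near Tpm1: Tpm3 stood at 0.22, with 5 probe sets between -0.13 and 0.85, and Tpm4 at 0.26 from 1 probe set. Of the 4 tropomyosin genes, Tpm2 alone was past 2-fold on these arrays, and the difference between the genes was not tested.

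**Figure D2:**
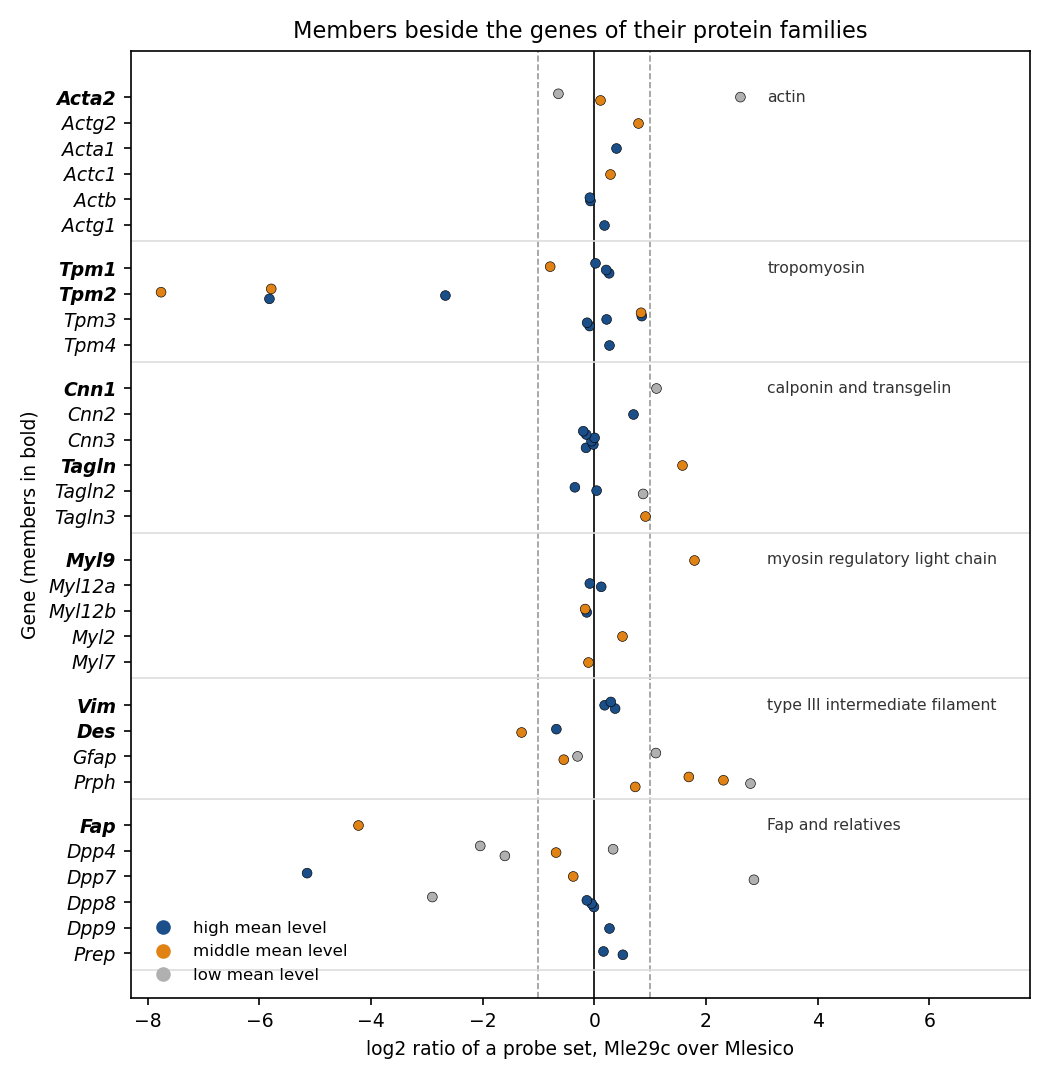
Log2 ratio of Mle29c over Mlesico (horizontal axis) of every probe set of the members (bold) and of genes of their protein families, coloured by estimated level class, with dashed lines at 2-fold. Tpm2 stands at -7.76 to -2.67 while the probe sets of Tpm1, Tpm3 and Tpm4 lie between -0.79 and 0.85, and among Fap and its relatives 1 probe set of Dpp7 at -5.14 lies below Fap at -4.24.

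Vim and Des encode vimentin and desmin, the intermediate filament proteins of mesenchymal and of muscle cells. The 3 Vim probe sets (gene at chr2:13574311-13582826) had centred log2 values of 0.19, 0.09 and 0.15 in Mle29c, against -0.19, -0.09 and -0.15 in Mlesico, and ratios of 0.37, 0.19 and 0.30. All were in the high class, with a probability of 99.6%, 54.3% and 99.5%. Vim was thus at a high level in these epithelial lines and differed 1.23-fold, less than the pooled spread between probe sets of a gene. The SD over its own 3 probe sets was 0.09, but 1438118_x_at and 1456292_a_at were designed from a single source transcript. Neither value measures the spread between arrays. Des (chr1:75360292-75368579) had centred log2 values of -0.65 and -0.34 in Mle29c, against 0.65 and 0.34 in Mlesico. Its ratios of -1.30 and -0.68 gave a value of -0.99, or 1.99-fold lower in Mle29c. Both Des probe sets pointed the same way, but they were designed from a single source transcript. Of all measured genes, 9.27% had a lower ratio than Des. The classes of the Des probe sets, middle and high, had a probability of 77.2% and 56.7%.

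Thy1 (chr9:44043384-44048579), an anchored surface glycoprotein of fibroblasts, T cells and neurons, had centred log2 values of 0.06 in Mle29c and -0.06 in Mlesico and a ratio of 0.13 from 1 middle-class probe set. The Thy1 probe set was low with an estimated probability of 18.9%. Fap (chr2:62500936-62575509), a serine protease on the surface of activated fibroblasts, had -2.12 in Mle29c and 2.12 in Mlesico, a ratio of -4.24 or 18.9-fold lower in Mle29c. The 2 surface genes therefore lay far apart, with Thy1 near the middle of all genes and Fap ranked 70 from the lowest. The single Fap probe set was called middle with a probability of 58.4%, against 41.3% for low, and its Mle29c level lay below 4 with a probability of 96.6%. The relatives of Fap were uneven. Dpp4, its closest relative, had a measured probe set at -0.68, and a median of -1.14 once its 3 low probe sets were added. Dpp7 stood at -2.76 from measured probe sets at -0.38 and -5.14, the second of them below Fap, and at -0.38 with its low probe set at 2.86 kept. The other listed relatives, named after their values were seen, lay within 2-fold: Dpp6 at 0.67, Dpp8 at -0.05, Dpp9 at 0.26, Dpp10 at -0.11, the prolyl endopeptidase gene Prep at 0.34 and Prepl at -0.26.

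**Figure D3:**
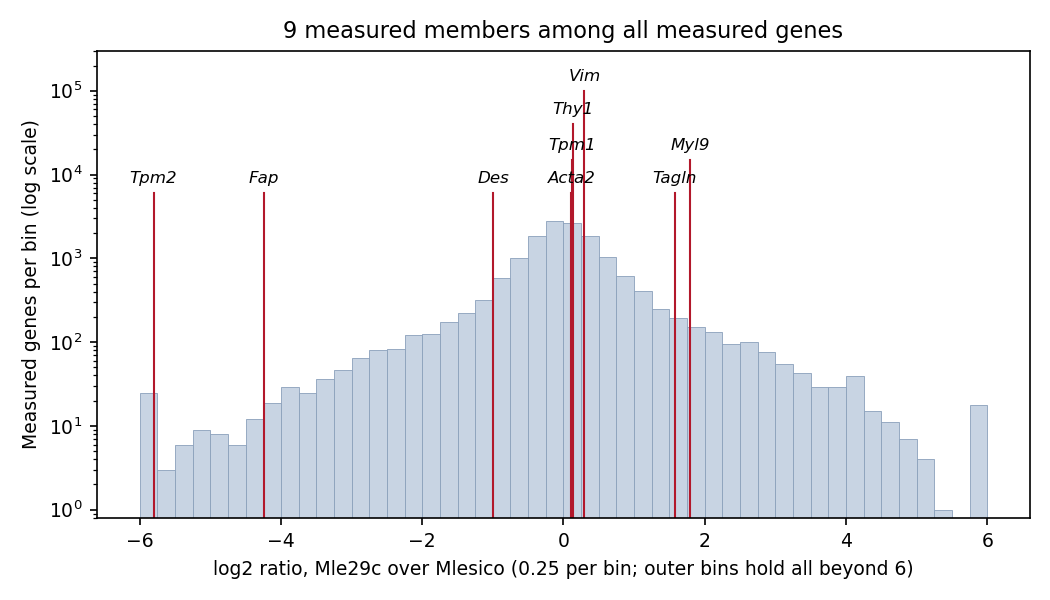
Number of measured genes (vertical axis, log scale) by log2 ratio of Mle29c over Mlesico in bins of 0.25, where the outermost bins hold all genes beyond 6, with the 9 measured members as red lines. Tpm2 at -5.80 and Fap at -4.24 lie in the lower tail, Tagln at 1.58 and Myl9 at 1.79 on the upper side, and Acta2, Tpm1, Thy1 and Vim near the middle.

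The neighbours of Tpm2 and Fap on the chromosome were read because these 2 members had the lowest ratios. The 10 nearest measured neighbours of Tpm2 on chromosome 4, 5 on each side, had starts within 181 kb and a median log2 ratio of 0.27, from -0.86 for Cd72 to 1.65 for Npr2. The adjacent genes Car9 and Tln1 stood at 0.68 and 0.10, so no neighbour had a ratio near that of Tpm2. Around Fap on chromosome 2, with starts spread over 4490 kb, 9 of the 10 neighbours were below 0. Their median was -0.52, beside 0.01 over all measured genes. Dpp4 and Ifih1, on either side of Fap, stood at -0.68 and -0.88, Fign at -2.66 and Cobll1 at -1.43, while Itgb6 was above 0 at 0.25. The 10 neighbours of Acta2 on chromosome 19 had a median of 0.75, beside 0.11 for Acta2 and 0.27 for the measured genes of that chromosome. For the other 7 members the median of the neighbours lay between -0.21 and 0.13.

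**Figure D4:**
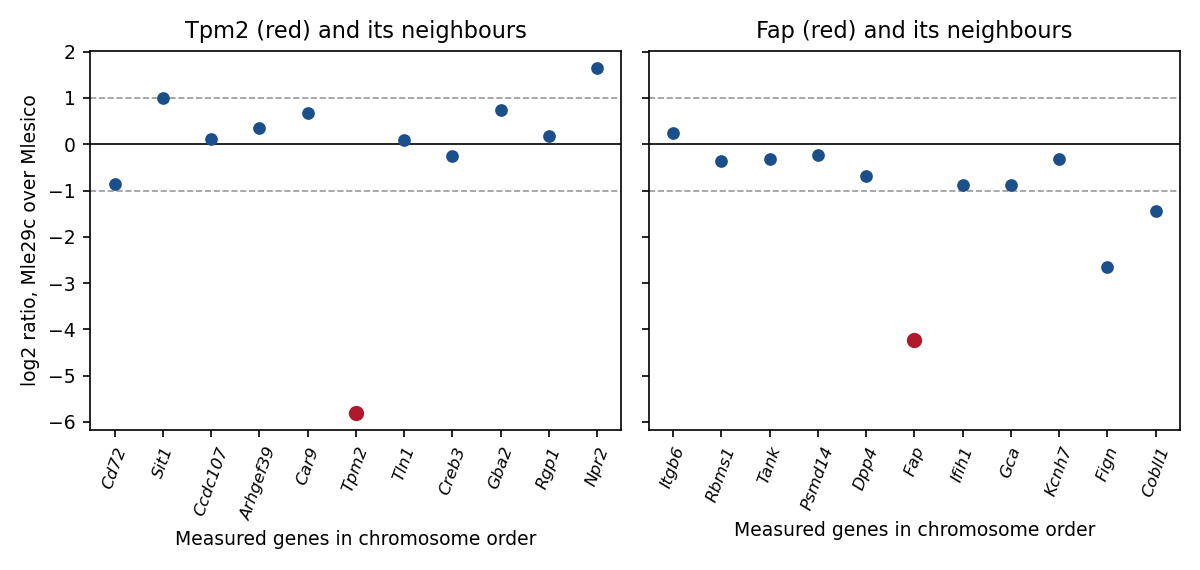
Log2 ratio of Mle29c over Mlesico (vertical axis) of Tpm2 and of Fap (red) and of the 5 nearest measured genes on each side (blue) in chromosome order, with dashed lines at 2-fold. Tpm2 at -5.80 stands below neighbours that run from -0.86 to 1.65, and 9 of the 10 neighbours of Fap lie below 0 (median of all measured genes 0.01).

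Of 114 measured genes in 6 related lists 96, or 84.2%, lay within 2-fold, beside 80.1% of all measured genes, a share near that background. Of 14 relatives of actin, tropomyosin, calponin and transgelin, none was past 2-fold, 11 were above 0 and the median was 0.33. The cytoplasmic actin genes Actb and Actg1 stood at -0.07 and 0.18, and Actg2, the enteric smooth muscle actin gene, at 0.79. Cnn2 and Cnn3, calponins of nonmuscle cells, were at 0.70 and -0.10, with the 6 Cnn3 probe sets between -0.20 and 0.01. Tagln2, a transgelin found in many nonmuscle cells, was the lowest at -0.15, and Tmod1, which caps actin filament ends, the highest at 0.92.

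Smooth muscle contractile partners had a median of 0.24, with 3 of 14 measured genes past 2-fold upward and 1 downward. Mylk, the kinase that phosphorylates the myosin light chain, was the highest at 2.02, with probe sets at 0.71, 2.02 and 2.50. Synpo2, an actin-bundling protein, stood at 1.52 with measured probe sets from -0.08 to 3.97, but at 0.72 and within 2-fold with its low probe set kept, and Ppp1r14a, an inhibitor of myosin phosphatase, at 1.26. Pdlim3, which binds alpha-actinin, was at -1.25. The smooth muscle myosin gene Myh11 had 2 low probe sets, at -1.10 and -3.19, and was not measured. The light chain genes closest to Myl9, Myl12a and Myl12b, were at 0.02 and -0.15, and the essential light chain gene Myl6 at 0.35.

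Among Srf, its cofactors and targets, 2 of 20 were higher and 1 lower (median 0.18). Srf itself stood at 0.47, with probe sets at 0.17 and 0.77. Lima1, an actin crosslinker, was at 1.17 with 5 probe sets between 0.26 and 1.29, Filip1l at 1.08 and the LIM-domain gene Fhl2 just past 2-fold lower. Focal adhesion and crosslinker genes had 2 of 24 higher and 1 lower (median 0.07). Tln2, a talin that couples integrins to actin, was at 2.20 with probe sets at 1.70, 2.20 and 3.56. Parvb, another adhesion protein gene, stood at 2.44 from 1 measured probe set, but at -0.45 with its low probe set kept. Flnc, the muscle filamin gene, was at -1.04.

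Other intermediate filament genes had 2 of 19 measured genes higher and 1 lower (median 0.13). Prph, which encodes peripherin, was at 1.69, and Synm, which encodes synemin, a partner of desmin and vimentin, at 1.28 with its probe sets at 1.24 and 1.32. Nes, which encodes nestin, another partner of vimentin, stood at 0.01. The epithelial keratin genes Krt8 and Krt18 were at 0.63 and -0.20, and Krt7 at -1.20.

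Of 23 measured relatives of Fap and Thy1 and fibroblast surface genes, 2 were higher and 3 lower (median 0.12). Ncam1, the neural cell adhesion gene, stood at 2.07, with measured probe sets from 0.51 to 6.87, and S100a4, a calcium-binding protein of motile fibroblasts, at 1.71. Ly6e, an anchored protein of the Ly6 family, was at -4.03, but its probe sets lay far apart, at -0.37 and -7.69. The third lower gene beside Ly6e and Dpp7 was Mcam, an adhesion molecule, at -1.46.

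**Figure D5:**
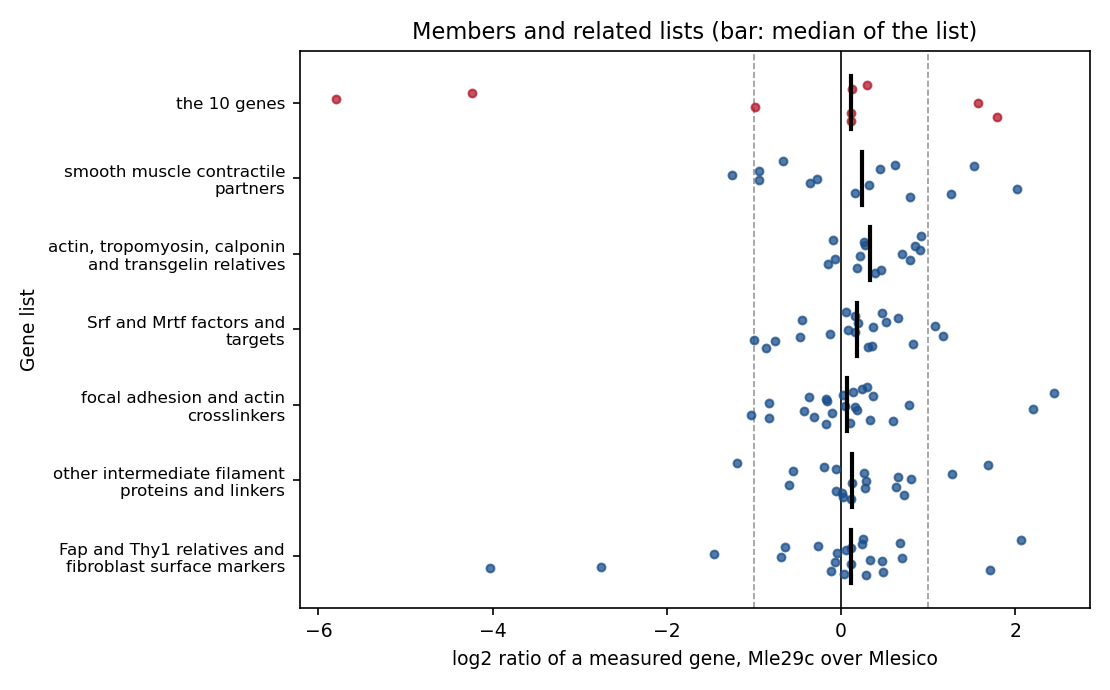
Log2 ratio of Mle29c over Mlesico (horizontal axis) of each measured gene among the 10 genes (red) and in 6 related lists (blue), with the median of each list as a black bar and dashed lines at 2-fold. All 14 relatives of actin, tropomyosin, calponin and transgelin lie within 2-fold, while the 9 measured members run from -5.80 to 1.79.

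Markers were read to check the labelled cell type. Levels summed per array cannot be given after the centring, so markers are counted by estimated level class over both lines. Of 16 epithelial markers on the array, 5 had a high probe set, including Krt8 and Krt19, 10 had at best a middle one and Ocln had low ones only. Of 15 fibroblast markers 8 had a high probe set, and Pdgfrb, Twist1 and Dpt had low ones only, while over all genes on the array 85.0% had a probe set above the low class and 58.0% a high one. High probe sets were also read for 4 of 8 smooth muscle, 3 of 10 striated muscle and 2 of 8 endothelial markers, so the classes do not single out a cell type. The fibroblast list had 3 of 12 measured genes higher and 2 lower: Postn, Col3a1 and Fn1 stood at 2.39, 1.55 and 1.08, and the mesenchymal transcription factor gene Prrx1 and the collagen gene Col1a1 at -3.66 and -3.41. The epithelial list had 3 of 15 higher (Cldn4 at 2.33, Sftpc at 1.66 and Cdh1 at 1.46) and 2 lower (the splicing factor gene Esrp1 at -4.51 and Krt7 at -1.20). Smooth muscle markers had 2 of 5 measured genes higher, Mylk and Synpo2 (Synpo2 within 2-fold with every probe set kept), and Myh11, Lmod1 and Kcnmb1 had low probe sets only. Of 8 leukocyte markers none had a high probe set, Ptprc, Cd3d and Cd4 had low ones only, and 1 of 5 measured genes was higher (Laptm5 at 1.02, but 0.77 with its low probe set kept). Endothelial markers had 1 of 5 measured genes higher (Vwf at 1.40) and 1 lower (Tek at -1.57), with Pecam1, Tie1 and Emcn low only. Striated muscle markers had 1 of 8 in each direction (Ckm at 1.04, but 0.97 with its low probe set kept, and Ryr1 at -2.22), with Myh1 and Tnnt3 low only. The part of these cell types in the ratios of the 10 genes was not tested.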

How the data were processed

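RNA of the Mle29c and Mlesico lines was read on 1 array each. Probe sets were summarised with MAS5 (version not given), per the submitters' processing notes. The values as deposited are logarithms, taken here as log2, which the authors centred per probe set: both values sum to 0 within 1e-06 and each column has a median of 0. The log base is not stated, and a natural log would make each fold larger.

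The level class rests on single-precision rounding, in which bigger logarithms keep fewer decimals. Rounding was simulated 48 times per level bin and probe set, and 1 distribution of levels was fitted over the table. Tested on simulated data, the class was right for 95.8% of the high calls, 91.5% of the middle calls and 93.1% of the low calls, but past 2-fold for 70.3% of the high and 22.3% of the middle calls. The simulated levels were drawn from the fitted distribution and rounded in the way the rule assumes. This accuracy therefore cannot show whether the rule suits the deposited values. The simulated differences were drawn from probe sets with a class probability of at least 0.9. A smaller share of middle calls was past 2-fold than in the data, so the accuracy past 2-fold may not carry over. This is the third class rule used. The first took the class from the sum of both values or their rounding step, and the second fitted levels within bins of the difference. The second made the class follow from the size of the ratio and was replaced for that reason, after the members' values had been seen under both earlier rules. Both earlier rules are kept as alternatives. The final rule still depends on the ratio in part. It allows no negative log2 level, so the mean level cannot lie below the size of the centred value. At a centred value of 3.88, as for 1425028_a_at of Tpm2, this leaves little room for a low class.

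Gene names came from the 2016 platform annotation, updated through a GRCm38.p6 gene table (34741 of 34945 single-gene probe sets found; 932 list several genes and 9160 none here). The 64 array controls were left out. A further gene list is not reported here. No test was possible, and the number of arrays limits the precision. Members and lists were chosen with earlier results of these data known. Other genes were named by a rule: in each list up to 3 past 2-fold on each side, or else the highest and the lowest, plus a set of direct partners. Outside it, Dpp6, Dpp8, Dpp9, Dpp10, Prep and Prepl, the chromosome neighbours and markers with low probe sets only were named after their values were seen. Alternatives were every probe set, the high class, the mean over probe sets, no shared probe sets, centring by chromosome, other fold thresholds, both earlier class rules and a class probability of at least 0.9. Python 3.11.15, numpy 2.4.6 and pandas 2.3.3 were used.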

Additional observations from a re-analysis of the deposited data

How the results depend on the processing

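The direction of Tpm2, lower in Mle29c by over 4-fold, was the same under every alternative run. The alternatives only reselected, averaged or recentred the same probe sets, all at -2.67 or lower, so they could not have changed it. The Tpm2 ratio was -4.24 over high-class probe sets, -2.67 without shared probe sets and -6.79 at a class probability of at least 0.9. The last value is not independent of the ratio. It includes 1425028_a_at at -7.76, whose low class was nearly excluded by the size of its own ratio. The counts did not hold. The class rule behind the main counts was itself adopted after the members' values had been seen under 2 earlier rules. Under the first of these (sum and step) and the second (fitted within bins of the difference), 1 member was higher (Myl9) and 1 lower (Tpm2) among 7 measured, since Tagln and Fap were low, and 8.41% and 7.45% of all genes were higher and 7.18% and 6.39% lower. Over high-class probe sets, and at a class probability of at least 0.9 (chosen after seeing the data), 0 were higher and 1, Tpm2, was lower, with 4 and 3 members left, where 6.43% and 2.22% of all genes were higher and 5.24% and 1.81% lower. At 4-fold 0 were higher (4.25% of all genes) and 2 lower (3.71%), and at 1.5-fold 2 were higher (18.6%) and 3, with Des, lower (16.8%). With every probe set kept, 3 were higher, Cnn1 being added (12.4% of all genes), and 2 lower (10.9%). The mean over probe sets, no shared probe sets and centring by chromosome left the counts at 2 and 2. The median of the members ran from -0.23 to 0.12. Of the single members' values under the alternatives 53 moved by less than the spread between probe sets and 3, all of Tpm2, by more, and none changed sign past 2-fold; of the counts in the other lists 85 moved by over 1.5 times and 155 did not. Weak signal limits Tagln, Cnn1, Myl9 and Fap, which rest on 1 dim probe set each. Acta2 and Thy1 also rest on 1 measured probe set each, of the middle class, so their ratios near 0 do not show equal levels. No paired analysis was possible because each line has 1 array.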
